A study of Mus musculus with 6 samples.

Results

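The genes described here encode the suppressors of cytokine signalling (SOCS) family, and all 8 of them (Cish, Socs1, Socs2, Socs3, Socs4, Socs5, Socs6 and Socs7) were found by symbol among the 24589 genes of the table. They were measured by bulk RNA-seq in wild-type primary mouse CD8+ T cells, which the study took from spleens and lymph nodes (C57BL/6 background), activated with antibodies to CD3 and CD28, and then kept for 24 h with DMSO (the solvent control, 3 libraries) or with TVA at 20 µM (3 libraries). TVA is trans-vaccenic acid, a long-chain fatty acid found in ruminant meat and milk. Activation was thus shared by both groups, and no unstimulated cells are among the 6 libraries analysed here. The labels give no age for the mice. They also do not say whether replicates came from separate animals or cultures, so the p-values measure only the spread between these libraries, which may be technical.

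SOCS proteins form the classical negative feedback loop of cytokine signalling. A cytokine receptor activates Janus kinases (JAKs), the JAKs activate STAT transcription factors, and the STATs induce SOCS genes. Each SOCS protein carries an SH2 domain that binds phosphotyrosine and a C-terminal SOCS box that recruits elongins B and C and the scaffold cullin 5, a ubiquitin ligase, while SOCS1 and SOCS3 can also inhibit JAK catalytic activity directly. In CD8+ T cells, CIS (the product of Cish) is induced by antigen receptor and interleukin-2 signals, SOCS1 limits interferon-γ and common γ chain cytokine signals, and SOCS3 acts on gp130 and the interleukin-12 receptor.

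Stretches near the start of the 3 members with the lowest estimates are shown first, because they hold letters of the kinds that STAT and interferon regulatory factors are known to bind. RefSeq windows of 300 bases (250 before and 50 after an annotated start, build GRCm38.p6, the same coordinates as the mm10 build named in the submitters' processing notes) were available for 4 of the 8 members, namely Cish, Socs1, Socs3 and Socs4. In the sequences below, given 5′ to 3′ in the direction of the gene, capitals mark the STAT-type palindrome TTCNNNGAA in Cish and Socs3 and, in Socs1, 2 overlapping copies of an interferon regulatory factor word, GAAA repeated after a gap of 2 bases. Matches were sought on both strands.
Cish: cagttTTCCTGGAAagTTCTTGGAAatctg
Socs1: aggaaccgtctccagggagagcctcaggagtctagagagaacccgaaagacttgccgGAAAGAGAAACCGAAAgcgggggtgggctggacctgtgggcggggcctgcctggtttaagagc
Socs3: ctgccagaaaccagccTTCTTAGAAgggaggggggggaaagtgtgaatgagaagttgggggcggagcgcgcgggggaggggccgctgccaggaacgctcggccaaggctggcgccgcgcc

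The Cish stretch lies at chr9:107296654-107296683 on the plus strand, in the UTR of a longer transcript of GENCODE vM21. Its palindromes begin at positions 1 and 12 counted from the RefSeq start. The Socs1 stretch lies at chr16:10785557-10785676 on the minus strand, outside every annotated transcript of Socs1, with its words beginning at positions -83 and -77. The Socs3 stretch lies at chr11:117969417-117969536 on the minus strand, within the gene span and with 35 of its 120 bases in an exon of a noncoding transcript. Its palindrome begins at position -154. Of 32851 RefSeq windows, 8.3% held TTCNNNGAA on either strand and 0.46% held at least 2 copies, as Cish did. The interferon regulatory factor word was present in 3.44% of windows, and at least 2 copies in 0.23%. The cAMP response word TGACGTCA, present in 1.79% of windows, and the palindrome with 1 more base in its centre, present in 6.95%, were not among the letters of any of the 4 windows. The window of Socs4 held none of the 4 words sought. These matches describe letters only, and binding was not measured.

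Transcript levels are given as TPM, the transcript share of a library on a fixed common total, which is scaled for transcript length. TPM keep no trace of sequencing depth, so depth is unknown and no counting interval is given. The identity of the cells was checked first. Cd8a ranged from 274.48 to 318.21 TPM and Cd8b1 from 306.44 to 329.12 TPM, and the 7 of 8 CD8 T cell markers in the table summed to 1996.1 to 2156.3 TPM in the DMSO libraries and 2249.8 to 2279.1 TPM with TVA. The 4 CD4 T cell markers summed to 15.1 to 16.2 TPM in the DMSO libraries and 12.2 to 14.2 TPM with TVA, with Cd4 between 3.33 and 4.46 TPM and lower in each TVA library (log2 change -0.19, limma adjusted p 0.119) and Cd40lg passing as lower (-0.33, limma adjusted p 0.0301). The 7 B cell markers summed to 11.4 to 15.1 TPM in the DMSO libraries and 10.8 to 11.2 TPM with TVA, most of it Cd79b at 9.15 to 13.25 TPM, the only B cell marker tested, which did not pass. The 10 myeloid markers, none of which was listed at 0 throughout, summed to 59.3 to 62.5 TPM in the DMSO libraries and 79.6 to 84.5 TPM with TVA, and 4 of them passed the test as higher. The 5 NK-type markers summed to at most 39.5 TPM in the DMSO libraries and at least 49.8 TPM with TVA, of which Eomes, also a CD8 T cell gene, passed as higher, while Ncr1 was at most 0.43 TPM. Myeloid cells also express SOCS genes, and the part of these other cell types in the results below was not tested. In bulk RNA, fewer cells of a type and less RNA per cell cannot be told apart.

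The DMSO libraries were less alike than the TVA libraries. The median SD of a gene on the log2(TPM + 1) scale was 0.0814 with DMSO and 0.0426 with TVA. DMSO replicate 2 had less than 50% of the mean of DMSO replicates 1 and 3 for 81 of the 10866 genes tested, against 23 and 8 genes when replicate 1 or 3 was set against the others in the same way. The libraries also differed in how level depended on the GC content of transcripts. Across 10588 genes, which are not independent replicates, the change with TVA had a Spearman correlation of -0.4 with GC content, and the difference between DMSO replicates 1 and 3 one of 0.62. Results of the members that rest on DMSO replicate 2 or on GC content are therefore given with and without that library or a GC correction. For genes of the wider pathway, only some such changes of call are given.

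All 8 members were expressed and all passed the filter for testing (at least 1 TPM in at least 3 libraries), so none was lost to low values. With DMSO, Cish was the most abundant at 128 ± 7.8 TPM (SD, n = 3), followed by Socs1 at 87.3 ± 41.8, Socs4 at 30.6 ± 0.445, Socs3 at 24.1 ± 2.54, Socs7 at 16.0 ± 0.586, Socs6 at 10.8 ± 0.389, Socs5 at 10.2 ± 0.261 and Socs2 at 6.64 ± 0.662 TPM. Neighbours in this order had separate ranges except for Cish and Socs1, and for Socs6 and Socs5. With TVA the order was the same, and no neighbouring ranges overlapped. Together the 8 transcripts summed to 363, 264 and 313 TPM in the DMSO libraries (replicates 1, 2 and 3) and to 256, 258 and 253 TPM in the TVA libraries. Socs1 made up 34.6%, 16.2% and 29.9% of that sum in the DMSO libraries and 15.8% to 17.2% with TVA, so in DMSO replicate 2 it lay within the TVA range.

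**Figure D1:**
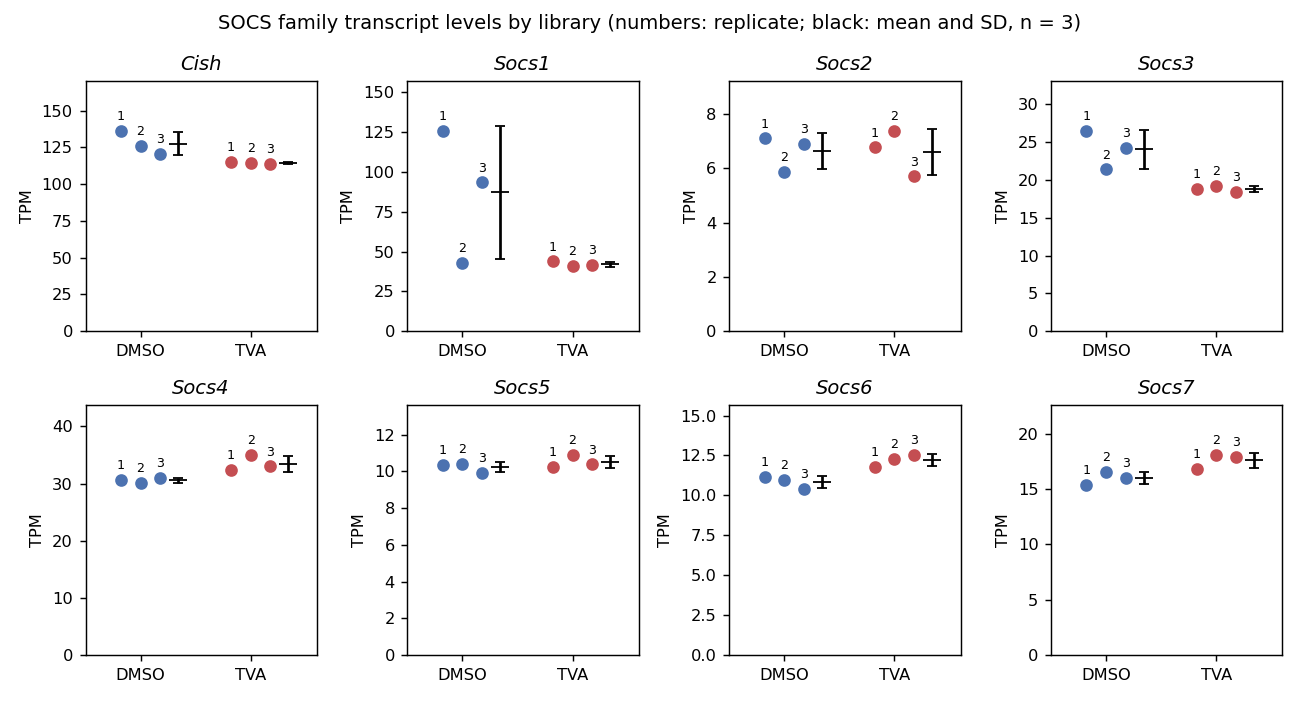
TPM (vertical axes from 0, a scale for each gene) of the 8 SOCS family genes in each library, with the replicate number above each point and the mean and SD of 3 libraries in black. Socs1 in DMSO replicate 2 (42.74 TPM) lies at the level of the TVA libraries, whereas Socs3 and Cish are lower and Socs4, Socs6 and Socs7 higher in each TVA library than in any DMSO library.

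The comparison of TVA with DMSO asks which members respond to the fatty acid. Changes were fitted with limma on log2(TPM + 1) across all genes tested, a scale on which changes of low genes are understated. Of the 8 members, 1 passed an adjusted p of 0.05 (Socs3, lower), and none passed as higher. Among all genes tested 8.51% passed, 3.23% as lower and 5.28% as higher, so the share of members, 12.5%, rests on Socs3 alone. The values of the groups did not overlap for 5 members (2 lower and 3 higher with TVA), against 38.6% of all genes tested, 11.2% lower and 27.3% higher. The median log2 change of the members was 0.02, against 0.04 over all genes tested, and the median absolute log2 change was 0.14, against 0.1.

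Socs3, whose product restrains signalling through gp130 and the interleukin-12 receptor, was the member that passed the test. It had 26.48, 21.41 and 24.29 TPM in the DMSO libraries (replicates 1, 2 and 3) and 18.88, 19.21 and 18.41 TPM in the TVA libraries. Each TVA library lay below each DMSO library, and DMSO replicate 2 was the DMSO library closest to them. The fitted log2 change was -0.33 (SE 0.0731, 95% interval -0.5 to -0.16, limma adjusted p 0.0373), with the TVA mean at 78.3% of the DMSO mean. Without DMSO replicate 2 the log2 change was -0.41 (limma adjusted p 0.00346). The call was lost when DMSO replicate 3 was left out (limma adjusted p 0.0956) or any one TVA library was (0.114 to 0.147).

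The value of Socs3 depended on how GC content was taken into account. GC content was 62.9% for the median of its annotated transcripts, the highest of the family, and 58.7% for the longest of them (2552 bases), just under that of Socs1. After a GC correction by the median content, Socs3 stood at 19.8, 23.5 and 21.2 TPM in the DMSO libraries and 20.9, 21.4 and 21.0 TPM with TVA, and its log2 change was -0.022 (limma adjusted p 0.826). After a correction by the longest transcript it stood at 23.0, 21.9 and 24.4 TPM in the DMSO libraries and 19.4, 20.0 and 19.3 TPM with TVA, and the log2 change was -0.23 (limma adjusted p 0.0238). The groups overlapped after the first correction and not after the second.

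Socs1, which encodes the main brake on interferon-γ and common γ chain cytokine signals in T cells, had the largest fitted change of the family and did not pass the test. It had 125.75, 42.74 and 93.44 TPM in the DMSO libraries (replicates 1, 2 and 3) and 43.9, 40.95 and 41.49 TPM in the TVA libraries. DMSO replicate 2 lay within the TVA range, so the groups overlapped. The fitted log2 change was -0.9 (SE 0.333, 95% interval -1.68 to -0.13, limma adjusted p 0.116). Without DMSO replicate 2, the TVA mean was 0.384 times that of the remaining DMSO libraries, and the log2 change was -1.34 (SE 0.109, limma adjusted p 0.0003). Without that library, 2 of 8 members passed (Socs1 and Socs3), against 20.6% of all genes tested. When any other library was left out, the log2 change of Socs1 was -0.93 to -0.58 (limma adjusted p 0.188 to 0.277). After the GC corrections Socs1 in DMSO replicate 2 was still at 43.7 or 43.8 TPM, close to its TVA values of 42.4 to 45.2 TPM and under its values of 93.7 to 111 TPM in the other DMSO libraries.

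**Figure D2:**
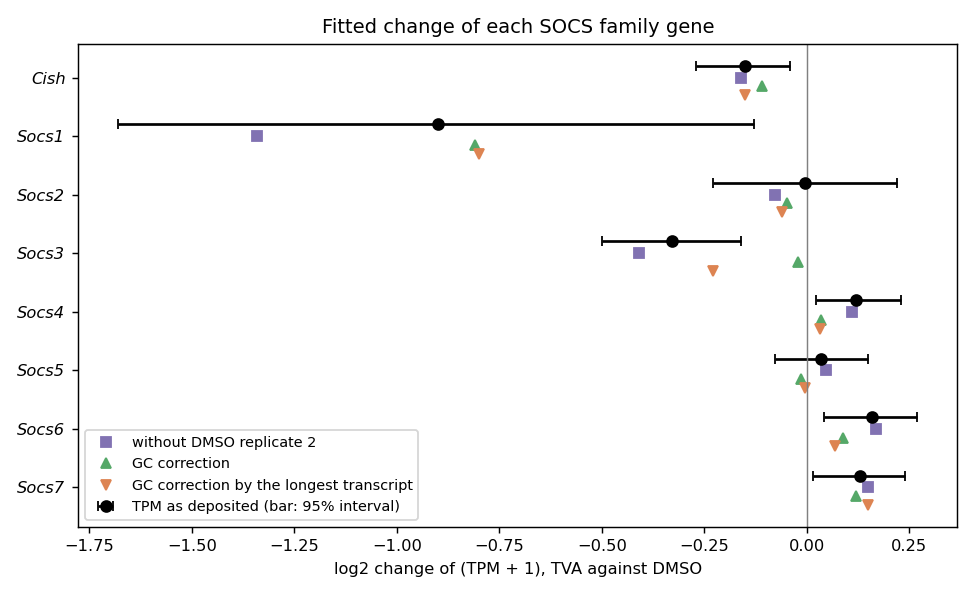
Fitted log2 change of (TPM + 1) with TVA against DMSO for each SOCS family gene (horizontal axis), with the 95% interval of the fit to the deposited values in black, and the estimates without DMSO replicate 2 and after 2 GC corrections as coloured symbols. Socs1 moves from -0.9 to -1.34 without DMSO replicate 2, and Socs3 from -0.33 to -0.022 or -0.23 after GC correction.

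The spread of Socs1 in the DMSO group was high among all genes. Its SD between DMSO libraries was 0.793 on the log2 scale, rank 43 of 10866, while its SD between TVA libraries was 0.0521, rank 4214. The 3 genes of at least 5 TPM on average with the levels most like those of Socs1 were Pgp (Pearson r of 0.9986 over the 6 libraries), Ube2s (0.9985) and Hnrnpa0 (0.9984), given as a description of these libraries. Pgp, a phosphoglycolate phosphatase gene, had 61.24, 18.85 and 41.39 TPM in the DMSO libraries and 19.15, 18.35 and 18.37 TPM with TVA. Hnrnpa0, which encodes an RNA-binding protein, had 269.59, 104.5 and 204.17 TPM in the DMSO libraries and 103.35, 102.61 and 105.79 TPM with TVA. Ube2s, which encodes a ubiquitin-conjugating enzyme of mitosis, had 574.17, 393.52 and 518.78 TPM in the DMSO libraries and 401.15, 398.72 and 397.64 TPM with TVA. As for Socs1, DMSO replicate 2 lay within or next to the TVA range in each of the 3, and none of them passed the test (limma adjusted p 0.119 to 0.146). The genes most like Socs3 were Mtfmt (0.9964), Erf (0.9958) and Psmd8 (0.9954). Their log2 changes were -0.18, -0.39 and -0.18, with limma adjusted p-values of 0.0596, 0.0423 and 0.0578. Because these genes were picked for their likeness to Socs3 over the same libraries, their values add no independent evidence.

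**Figure D3:**
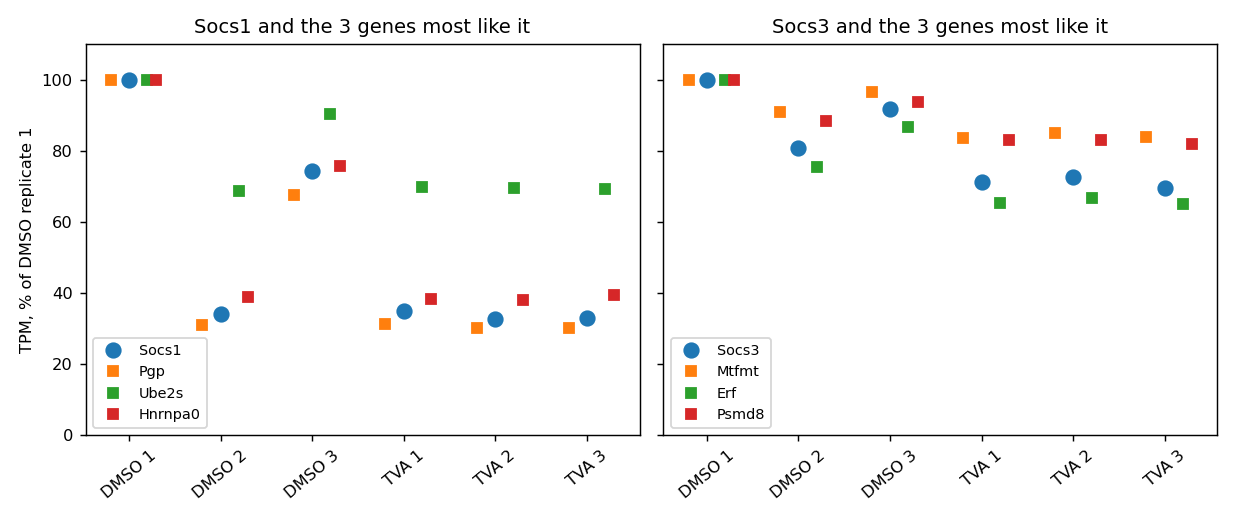
TPM in each library as a percentage of DMSO replicate 1 for Socs1 and the 3 genes most like it (left) and for Socs3 and the 3 genes most like it (right), from 0 on the vertical axis. For Socs1, Pgp, Ube2s and Hnrnpa0, DMSO replicate 2 is at the height of the TVA libraries, whereas for Socs3 it lies between them and the other DMSO libraries.

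Cish, which encodes the founding family member CIS, was lower in each TVA library than in any DMSO library, by a small amount. It had 136.08, 125.93 and 120.74 TPM in the DMSO libraries (replicates 1, 2 and 3) and 115.1, 114.49 and 113.58 TPM in the TVA libraries. The groups were separate, with the TVA mean at 89.7% of the DMSO mean. The fitted log2 change was -0.15 (SE 0.0482, 95% interval -0.27 to -0.042, limma adjusted p 0.0814). Cish passed the threshold as lower with median-of-ratios size factors (-0.19, limma adjusted p 0.0345) and after either GC correction (-0.11 with limma adjusted p 0.0453 by the median, and -0.15 with 0.0265 by the longest transcript). The annotation holds 2 genes antisense to Cish, Gm17040 and Gm17041, which share 261 and 479 exon bases with it. Whether the authors used strand in quantification is not stated, so reads of Cish and these genes may not be told apart.

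Socs2, best known for restraining growth hormone signalling, was the least abundant member. It had 7.11, 5.88 and 6.92 TPM in the DMSO libraries and 6.78, 7.38 and 5.71 TPM with TVA. The groups overlapped throughout, and the log2 change was -0.0049 (SE 0.0986, 95% interval -0.23 to 0.22, limma adjusted p 0.977). The interval thus allows log2 changes down to -0.23 or up to 0.22, well beyond the estimate.

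The remaining members, less studied as feedback inhibitors of JAK-STAT signalling, did not pass the test. Socs4 had 30.58, 30.16 and 31.05 TPM in the DMSO libraries and 32.37, 35.04 and 32.99 TPM with TVA. Socs6 had 11.14, 10.98 and 10.4 TPM in the DMSO libraries and 11.77, 12.29 and 12.54 TPM with TVA. Socs7 had 15.41, 16.58 and 16.06 TPM in the DMSO libraries and 16.84, 18.12 and 17.9 TPM with TVA. For these 3 genes every TVA library lay above every DMSO library, although for Socs7 the gap between the nearest libraries was small. Their log2 changes were 0.12 (95% interval 0.023 to 0.23), 0.16 (0.041 to 0.27) and 0.13 (0.015 to 0.24), and their limma adjusted p-values 0.104, 0.0838 and 0.123. None of the 3 passed the threshold in any of the 15 alternative fits. After the GC corrections Socs4 was at 0.035 or 0.031 and Socs6 at 0.088 or 0.068 on the log2 scale, while Socs7 was at 0.12 or 0.15. Socs5, whose product has been tied to receptor tyrosine kinase and interleukin-4 receptor signals, had 10.37, 10.41 and 9.94 TPM in the DMSO libraries and 10.26, 10.91 and 10.38 TPM with TVA, with overlapping groups and a log2 change of 0.035 (95% interval -0.078 to 0.15, limma adjusted p 0.644).

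Within the family the 3 members with the highest median GC content were those with the lowest estimates. Median transcript GC content was 56.4% for Cish, 58.6% for Socs1 and 62.9% for Socs3, the 3 members whose estimates were negative beyond 0.1, and 41.4% for Socs4, 44.6% for Socs6 and 52.7% for Socs7, the 3 whose estimates were positive beyond 0.1. Socs2 (48.5%) and Socs5 (47.8%) had estimates closer to 0, although Socs7 is more GC-rich than both. By the longest transcript the order differed, with Socs7 (53.8%) above Cish (53.1%). By their longest transcripts, Socs1 and Socs3 had a like GC content (58.8% and 58.7%), with estimates of -0.9 and -0.33. The interval of the Socs1 estimate, -1.68 to -0.13, includes the Socs3 estimate, and a difference between these members was not tested.

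**Figure D4:**
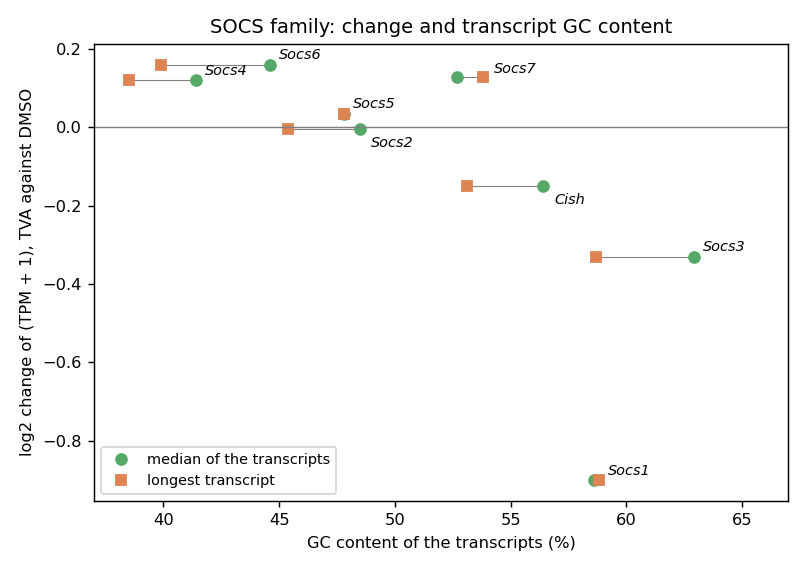
Log2 change of (TPM + 1) with TVA against DMSO (vertical axis) and GC content of the annotated transcripts in percent (horizontal axis) for the 8 SOCS family genes, with the median of a gene's transcripts and its longest transcript joined by a line. By the median, Socs3, Socs1 and Cish are the most GC-rich and have the lowest estimates, and Socs4 and Socs6 are the most GC-poor and have estimates above 0.

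The wider pathway was described with 8 lists of cytokine signalling genes, 108 of whose 110 genes were in the table and 90 were tested. Of these 90, 15 passed (6 higher and 9 lower), or 16.7% against 8.51% of all genes tested. The lists were chosen with earlier results of these data known. Shares of genes passing, here and for each list below, are therefore a description and no independent evidence. Of the 15, 40% were higher, against 23.5% of the calls with median-of-ratios size factors and 25% with quantile normalization. When a TVA library was left out 4 to 7 passed, against 0.939% to 1.15% of all genes tested. When DMSO replicate 2 was left out 29 did, or 32.2% against 20.6% of all genes tested, and when DMSO replicate 3 was left out 8 did, or 8.89% against 2.71%. With all genes above 0 TPM, Il3, Il10rb, Prf1 and Asb1 did not pass. Of the 15 genes, 4 passed in every alternative in which they were fitted, namely Il2, Il9, Il13 and Tnfrsf4. The median log2 change over the 90 genes was 0.01.

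Of 11 cytokine ligand genes tested, 5 fell and none passed as higher, or 45.5% against 3.23% of all genes tested that passed as lower, and the median log2 change was -0.31, against 0.04. The CD4 T cell marker Cd40lg was lower in the same libraries (4.83 ± 0.327 and 3.64 ± 0.171 TPM, SD, n = 3), and its part in these values was not tested. Il2, the ligand that drives STAT5 and the common γ chain receptor in activated CD8+ T cells, had 499.63, 517.27 and 499.56 TPM in the DMSO libraries and 357.13, 361.38 and 361.95 TPM in the TVA libraries (a log2 change of -0.49, limma adjusted p 0.000723). The groups were far apart and each was uniform. Il9 had 4.44, 7.2 and 5.71 TPM in the DMSO libraries and 1.89, 2.03 and 1.52 TPM in the TVA libraries (a log2 change of -1.25 with SE 0.147, limma adjusted p 0.00552). Il13 fell from 32.8 ± 2.18 to 15.6 ± 1.0 TPM, and Il4, the ligand that activates STAT6, from 11.2 ± 0.987 to 7.21 ± 0.815 TPM (SD, n = 3, log2 changes -1.03 and -0.57, limma adjusted p 0.000501 and 0.0158). The remaining gene, Il3, was named after its value was seen and fell from 76.0 ± 3.76 to 61.0 ± 4.6 TPM (a log2 change of -0.31, limma adjusted p 0.0274). Il4 and Il3 lost the call without DMSO replicate 3, TVA replicate 2 or TVA replicate 3. Ifng, the interferon-γ gene and also named after its value was seen, had 1669.6 ± 51.0 TPM in the DMSO libraries and 1737.4 ± 11.4 TPM with TVA and did not pass (log2 change 0.058, limma adjusted p 0.33).

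Of 19 receptor genes tested, 4 rose and none passed as lower (21.1%, against 8.51% of all genes tested), and the median log2 change was 0.03. The absence of lower calls depended on the scaling. Il12rb1, the other chain of the interleukin-12 receptor and named after its value was seen, had 94.07, 78.6 and 75.22 TPM in the DMSO libraries and 68.51, 68.45 and 68.77 TPM in the TVA libraries. Its groups were separate, with a log2 change of -0.26 (limma adjusted p 0.0732). It passed as lower with median-of-ratios size factors, with quantile normalization, after both GC corrections, and without DMSO replicate 1 or 2. Il21r, which shares the common γ chain, had 273.33, 283.31 and 259.97 TPM in the DMSO libraries and 330.61, 324.57 and 321.18 TPM in the TVA libraries (a log2 change of 0.26, limma adjusted p 0.0162). Il12rb2, the signalling chain of the interleukin-12 receptor to which SOCS3 binds, rose from 39.9 ± 1.33 to 48.6 ± 2.35 TPM (SD, n = 3, log2 change 0.28, limma adjusted p 0.0205). The interleukin-10 receptor genes Il10ra and Il10rb rose from 14.5 ± 0.721 to 18.1 ± 0.491 TPM and from 47.6 ± 2.07 to 54.2 ± 0.904 TPM (log2 changes 0.31 and 0.18, limma adjusted p 0.0166 and 0.0443). Il21r lost its call without any one TVA library, Il12rb2 without DMSO replicate 3 or TVA replicate 2 or 3, and Il10ra and Il10rb without DMSO replicate 3 or any one TVA library. Il10rb also lost it with median-of-ratios size factors, quantile normalization and the GC corrections. The interleukin-2 receptor chains did not pass, although Il2rg did without DMSO replicate 2. Il2ra had 327 ± 5.93 and 351 ± 10.2 TPM, Il2rb 166 ± 11.3 and 169 ± 1.5 TPM, and Il2rg 447 ± 18.2 and 493 ± 8.97 TPM in the DMSO and TVA libraries (limma adjusted p 0.117, 0.741 and 0.0702).

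Among the transducers between receptor and SOCS gene, Stat5a fell. STAT5 is the factor through which interleukin-2 induces Cish. Stat5a had 179.48, 159.27 and 152.83 TPM in the DMSO libraries and 125.67, 125.54 and 125.39 TPM in the TVA libraries (a log2 change of -0.38 with SE 0.059, limma adjusted p 0.0159), with no overlap between the groups. Its call was lost without any one TVA library, with limma adjusted p up to 0.0857. Its paralog Stat5b had 69.92, 58.05 and 59.19 TPM in the DMSO libraries and 51.93, 52.7 and 52.14 TPM in the TVA libraries (a log2 change of -0.25, limma adjusted p 0.0629). Stat5b passed with median-of-ratios size factors, with quantile normalization, after both GC corrections, and without DMSO replicate 1 or 2. These paralogs are similar in sequence, and reads could be exchanged between them. Stat2, Stat3, Stat4 and Stat6 did not pass, although Stat3 did without DMSO replicate 1. Stat2 was at 19.5 ± 0.557 and 19.8 ± 0.316, Stat3 at 108 ± 6.98 and 117 ± 2.24, Stat4 at 126 ± 1.48 and 132 ± 1.99, and Stat6 at 116 ± 7.0 and 120.4 ± 0.739 TPM in the DMSO and TVA libraries (SD, n = 3, limma adjusted p 0.184 to 0.778).

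None of the 4 JAK genes passed, and 2 of them had an unadjusted limma p under 0.05 (31.8% of all genes tested did). Jak3, the kinase bound to the common γ chain, had 64.36, 45.85 and 51.41 TPM in the DMSO libraries and 43.41, 42.95 and 42.59 TPM in the TVA libraries (a log2 change of -0.31, limma adjusted p 0.105). Every TVA library lay below every DMSO library, and DMSO replicate 1 was well above the other DMSO libraries. Jak1, its partner kinase, had 113 ± 2.69 and 123 ± 2.46 TPM (a log2 change of 0.12, limma adjusted p 0.0739). Jak3 passed without DMSO replicate 2, as 20.6% of all genes tested did. Jak1 passed without DMSO replicate 1 and after GC correction by the median content. Jak2 had 115 ± 1.05 and 117 ± 4.06 TPM and Tyk2 30.3 ± 2.6 and 28.2 ± 0.655 TPM (limma adjusted p 0.692 and 0.292).

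SOCS proteins act through a cullin 5 ubiquitin ligase, whose genes did not pass the test. None of the 9 cullin 5 ligase genes tested (Cul5, the elongin genes under their older symbols Tceb1 and Tceb2, Rnf7, Rbx1, Arih2, Nedd8, Ube2f and Ube2m) passed, 1 had an unadjusted limma p under 0.05, and their median absolute log2 change was 0.04, against 0.1 over all genes tested. None of the 12 genes of other inhibitors (PIAS proteins, tyrosine phosphatases, Sh2b3, Usp18 and Cblb) passed either, with 3 at an unadjusted limma p under 0.05. Without DMSO replicate 2, where 20.6% of all genes tested passed, Nedd8, Ptpn6 and Pias1 did. Ptpn6 also passed with median-of-ratios size factors, with quantile normalization and after both GC corrections, and Pias2 after both GC corrections. Of 14 other SOCS box genes tested, 2 passed (14.3%, against 8.51% of all genes tested). Spsb1, which encodes a SOCS box protein with a SPRY domain, had 7.93, 6.13 and 6.57 TPM in the DMSO libraries and 3.24, 3.71 and 4.37 TPM in the TVA libraries (a log2 change of -0.72 with SE 0.112, limma adjusted p 0.0155). Asb1, an ankyrin repeat member of the SOCS box group, rose from 5.77 ± 0.322 to 7.01 ± 0.208 TPM (SD, n = 3, log2 change 0.24, limma adjusted p 0.0445). Spsb1 lost its call without TVA replicate 1 or 2, and Asb1 without any library other than DMSO replicate 2, or under either other scaling.

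Genes known as STAT5 targets, a hand-written list that leaves out the SOCS family, had a median log2 change of 0.02. Of 17 tested, 1 passed as higher and 2 as lower, or 17.6% in all, against 8.51% of all genes tested. Tnfrsf4, which encodes the costimulatory receptor OX40, fell from 267 ± 12.4 to 199 ± 1.51 TPM (SD, n = 3, log2 change -0.42, limma adjusted p 0.00323). Lta, a tumour necrosis factor family ligand gene, fell from 220.3 ± 8.65 to 191 ± 3.42 TPM (a log2 change of -0.21, limma adjusted p 0.028). Prf1, the gene of the pore-forming protein perforin, rose from 52.2 ± 6.07 to 66.4 ± 2.05 TPM (a log2 change of 0.35, limma adjusted p 0.0376). Lta and Prf1 lost their calls without any one TVA library, and Prf1 also without DMSO replicate 3. Lta did not pass after GC correction by the longest transcript.

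**Figure D5:**
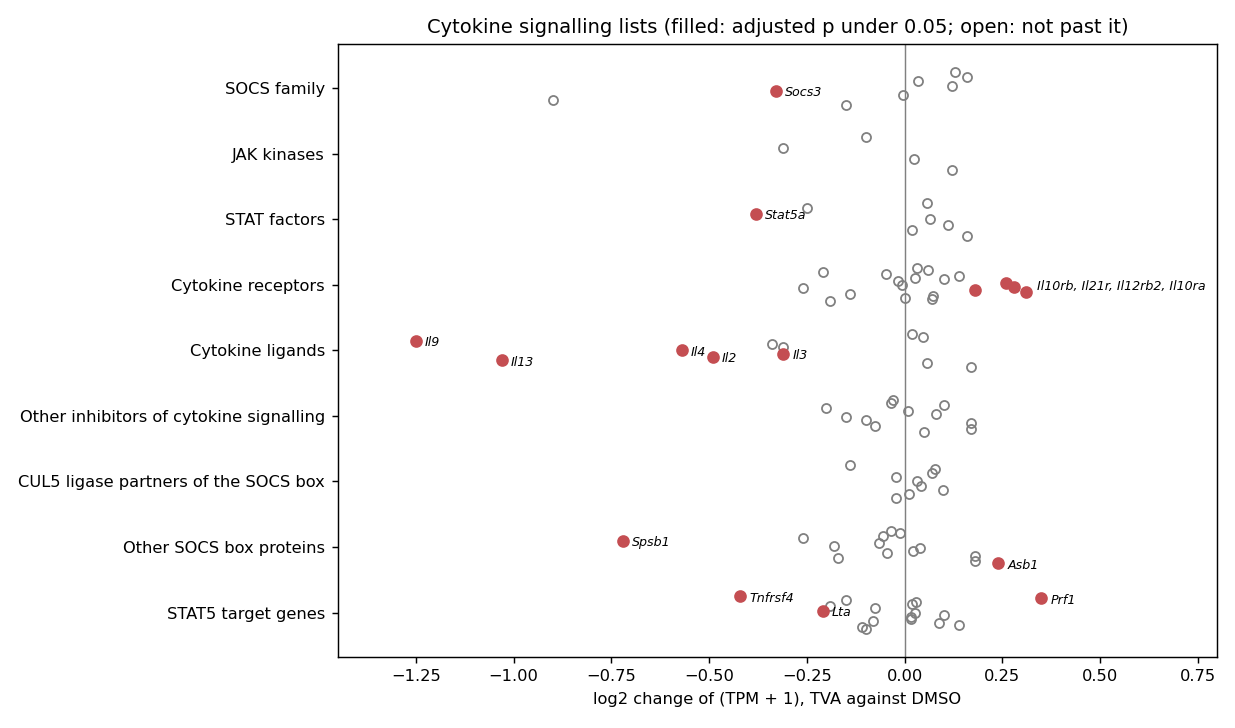
Log2 change of (TPM + 1) with TVA against DMSO (horizontal axis) for each tested gene of the SOCS family and of 8 cytokine signalling lists (rows), with filled red points for an adjusted p under 0.05 and open points for the rest. A gene in 2 lists is drawn in both, the filled ligand genes lie between -1.25 and -0.31, and the filled receptor genes between 0.18 and 0.31.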

How the data were processed

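Per the labels, a SMARTER kit for mRNA-Seq served for library preparation. The submitters' processing notes name STAR, RSEM and the mm10 build, with no version or role. The authors deposited one table of TPM with 2 decimals per gene symbol, which was used as deposited. Annotation and use of strand are not given in the sources used here. Columns were assigned through the name in each sample's description, and groups through the titles.

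TVA and DMSO were compared on log2(TPM + 1) for genes with at least 1 TPM in at least 3 libraries (10866 of 24589), with limma 3.58.1 in R 4.3.3 (variance trend, two-sided, Benjamini-Hochberg over all genes tested, threshold 0.05). The fit was tested on simulated data. Errors are SD or SE, and intervals 95%. Alternatives were other pseudocounts, filters and scalings, no trend, a replicate block and leaving out each library. The GC corrections were chosen after seeing the data. In each, a loess curve (span 0.5) of each library's deviations on the GC content of GENCODE vM21 transcripts was subtracted (97.4% of genes had a value).

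The members, lists and named genes were chosen with earlier results of these data known. Named were all members, the JAK and STAT genes, Il2 and its receptor chains, up to 4 passing genes of each other list, and the 3 genes most like each of the 2 members with the largest change. Some genes that this rule names are not reported here. Deviations from the group means correlated at 0.157, 0.0348 and -0.0767 between libraries of the same number, so replicate numbers were not used as pairs.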

Additional observations from a re-analysis of the deposited data

How the results depend on the processing

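Socs3, at -0.33 on the log2 scale, kept its direction in all 15 alternatives and passed in 8. It did not pass with all genes above 0 TPM (-0.33, limma adjusted p 0.0749) or after GC correction by the median content (-0.022), and ran from -0.41 to -0.26 when a library was left out. Cish passed with median-of-ratios size factors (-0.19) and the GC corrections (-0.11 by the median, -0.15 by the longest transcript). Socs1 ran from -1.34 to -0.58 with a library left out and passed only without DMSO replicate 2. Socs2 changed sign with a library left out (-0.078 to 0.084), and Socs5 after GC correction (-0.014 by the median and -0.0045 by the longest transcript). Socs4, Socs6 and Socs7 kept direction and side in all 15.

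The count of members past the threshold, 1, was 0 with all genes above 0 TPM, 2 with median-of-ratios size factors, 2 after GC correction by the longest transcript, and 0 to 2 with a library left out. Pathway genes past it, 15, were 4 to 29 with a library left out. All genes past it, 925, were 494 when all genes above 0 TPM entered, 608 when a mean of at least 10 TPM was required, and 102 to 2242 with a library left out (2242 without DMSO replicate 2). Of the 925, 62.1% were higher with TVA, against 35.4% with median-of-ratios size factors and 46.1% with quantile normalization.

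Replicate numbers were not taken as pairs. In the fit with a replicate block, Socs3 was at -0.33 (limma adjusted p 0.0656), and 0 members, 6 pathway genes (Il2, Il9, Il13, Il21r, Stat5a and Tnfrsf4) and 218 of all genes passed. The cause of these differences was not tested. TPM carry no depth, so its limits could not be assessed.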
